A study of Mus musculus with 22 samples.

Results

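Cytosolic ribosomal protein genes, which encode the proteins of the large and small subunits of the cytoplasmic ribosome, were followed in 22 mouse liver libraries. Members were the gene symbols of the standard Rpl and Rps form, with or without a suffix, together with Rplp0, Rplp1, Rplp2 and Rpsa. This gave 83 of the 18714 gene names in the table, 51 for the large and 32 for the small subunit. Of these, 81 passed the filter on low values, 49 of the large and 32 of the small subunit, and Rpl3l and Rpl39l did not. The members lie on 19 chromosomes, 4 of them on the X.

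The labels give the genotype of all livers as Fah-/-. Fah is the gene for fumarylacetoacetate hydrolase, which completes the breakdown of tyrosine. Fah transcript was abundant in most livers that had received cells but near the D0 level in YC 6 and YC 7, as given below. The 7 D0 livers were taken at day 0 and are labelled as normal liver. The 8 vehicle and 7 YC livers came from animals that had received cells labelled td-Hepatocytes and were given vehicle or YC for 28 days after NTBC, a drug that blocks an earlier step of tyrosine breakdown, was withdrawn. The labels do not spell out YC or td, and D0 and day 28 livers differ in transplantation and NTBC as well as in time, which cannot be told apart. The design text asks whether YC acts on transplanted hepatocytes through dedifferentiation. The labels do not state whether libraries of a group are different animals, and p-values here refer to the spread among libraries only.

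Ribosomal proteins are made in near-equal amounts and assembled with ribosomal RNA in the nucleolus, so their genes are usually expressed together. Many of their mRNAs begin with a terminal oligopyrimidine (TOP) motif, a cytosine followed by a run of pyrimidines, through which mTOR controls how often they are translated. Some members have close relatives encoded by other genes, and a few proteins act outside the ribosome, such as Rpl5, Rpl11 and Rpl23, which bind the p53 regulator Mdm2.

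Annotated start sites of the family carried the TOP-like start more often than those of other genes. Start regions were taken from RefSeq (GRCm38.p6), which held 75 windows for 63 members, and 20 members had none. A TOP-like start was counted where the annotated first base, read on the gene's strand, was C followed by at least 4 pyrimidines (C or T). It was found in 14 of the 75 member windows (18.7%) and in 823 of 32851 windows in all (2.51%). With the start allowed to shift by up to 5 bases, the shares were 42.7% and 18.3%. The examples below span 30 bases with the annotated start as the 16th, the pyrimidine run from that base in capitals where the start was TOP-like. Rps6, Rpl15, Rpl35 and Rpl38 show such starts, and Rps27 and its relative Rps27l are shown because their levels diverged, 1 with and 1 without the start. Rpl10a and Rpl22l1, without it, had the lowest fold change of the tested members in YC minus vehicle and the highest in vehicle minus D0.

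Rps6: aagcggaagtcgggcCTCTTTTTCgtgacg
Rpl15: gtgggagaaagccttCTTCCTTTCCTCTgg
Rpl35: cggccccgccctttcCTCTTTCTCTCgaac
Rpl38: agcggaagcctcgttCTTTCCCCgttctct
Rps27: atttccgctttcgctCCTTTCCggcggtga
Rps27l: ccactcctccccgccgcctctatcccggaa
Rpl10a: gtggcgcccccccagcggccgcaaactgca
Rpl22l1: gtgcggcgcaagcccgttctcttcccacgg

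On GRCm38.p6 these windows are Rps6 at chr4:86857353-86857382 (minus strand), Rpl15 at chr14:18270972-18271001 (minus), Rpl35 at chr2:39005117-39005146 (minus), Rpl38 at chr11:114668565-114668594 (plus), Rps27 at chr3:90213634-90213663 (minus), Rps27l at chr9:66946071-66946100 (plus), Rpl10a at chr17:28328456-28328485 (plus) and Rpl22l1 at chr3:28805493-28805522 (plus). Rps27l and Rpl10a have a further annotated start each. A match describes these letters and is not evidence of a functional TOP motif. As deposited, the 14 tested members with such a start had a median log2 fold change of 0.41 in vehicle minus D0 and -0.26 in YC minus vehicle, and the 47 with a window but no such start had 0.38 and -0.21. Among tested genes outside the family, 261 with a TOP-like start had medians of 0.07 and 0.31, and 9355 with a window and no such start had -0.01 and 0.32.

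Several facts of the whole set of libraries bear on the family. Values are RPKM, reads set relative to transcript length and to the library's mapped reads. Relative depth, read from the steps between low values and set to 1 in vehicle 2, ranged from 0.80 to 1.39. Fah averaged 29.4 ± 6.09 RPKM in D0 (SD, n = 7), 404 ± 80.2 in vehicle (SD, n = 8) and 185 ± 144 in YC livers (SD, n = 7), with YC 6 and YC 7 at 41.3 and 31.5 RPKM and the other YC livers at 105 to 407. Transcripts of the Y chromosome were found in 8 vehicle, 3 YC and 0 D0 libraries. They separate every vehicle from every D0 library, which cannot be told apart from the other differences between these groups. The labels do not give the reason. Vehicle 3 held 4559 RPKM summed over 8 skeletal muscle genes against 1.00 to 4.64 in the other libraries. Summed pancreatic acinar markers (5 genes) were 731 RPKM in YC 4 and 266 in vehicle 1, against 5.31 to 105 in the other libraries. The setting without vehicle 1 and YC 4 leaves out both. Albumin, the main hepatocyte marker, held 2.47 to 12.9% of summed RPKM in every library. Since all are bulk livers, fewer cells of a type and less RNA per cell cannot be told apart.

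The family's level varied as a block between libraries. Its 83 genes held 4.42 ± 0.61% of summed RPKM in D0 livers (SD, n = 7), with a lowest value of 3.52, a median of 4.41 and a highest of 5.47%. Vehicle livers held 5.63 ± 1.05% (SD, n = 8), from 4.17 through a median of 5.48 to 7.45%. YC livers held 5.19 ± 1.71% (SD, n = 7), from 3.82 through a median of 4.41 to 8.42%. The 3 groups overlapped, and 5 YC livers lay together at 3.82 to 4.81% while YC 6 and YC 7 stood apart at 6.64 and 8.42%. Without YC 6 and YC 7 the YC mean was 4.26 ± 0.38% (SD, n = 5). Both subunits followed the order of the family's means over all libraries. The large subunit was at 2.52, 3.28 and 3.04% and the small at 1.90, 2.35 and 2.15% in D0, vehicle and YC livers. Without YC 6 and YC 7 the YC means were 2.51% for the large and 1.75% for the small subunit. These and the family's 4.26% lay below the D0 means.

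**Figure D1:**
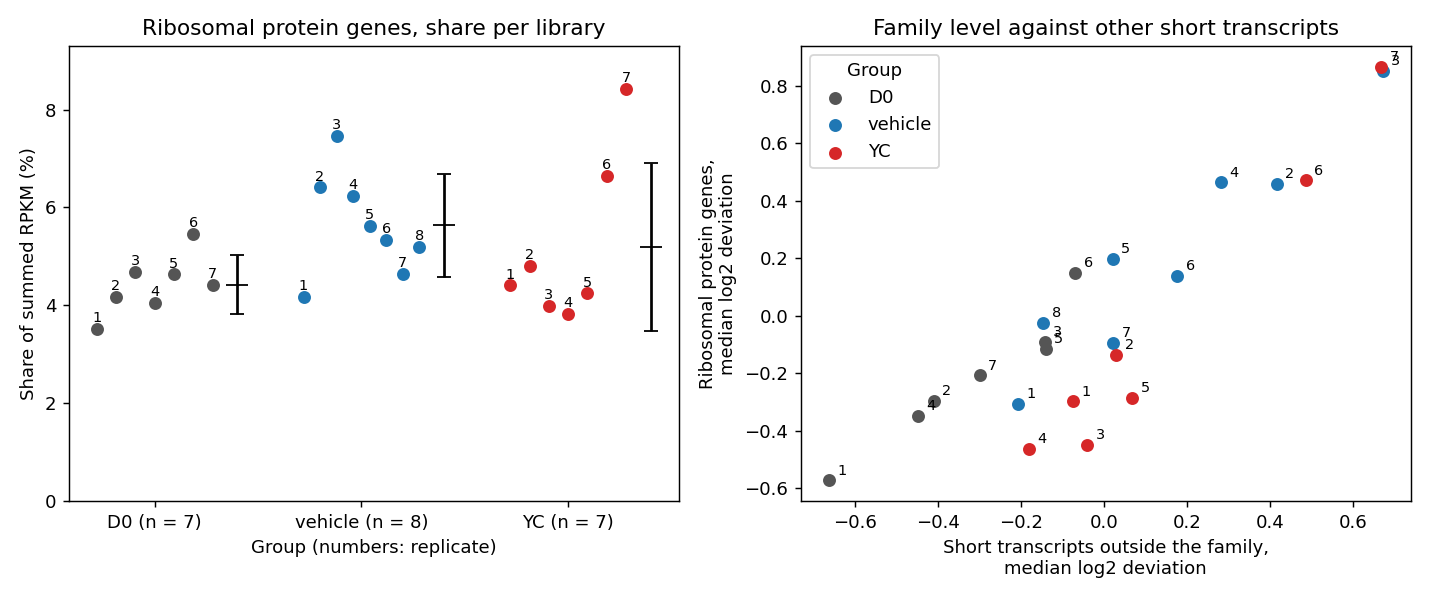
Left, share of summed RPKM (%) held by the 83 ribosomal protein genes in each library, numbered by replicate, with group mean and SD. Right, for each library, the family's median log2 deviation from the gene means against that of 680 other genes with transcripts under 1000 bases; YC 7 and vehicle 3 are highest on the vertical axis at 0.87 and 0.85, and D0 1 is lowest at -0.57.

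Most members rose and fell together across libraries. YC 7 was the highest YC library for 78 of the 81 tested members, vehicle 3 the highest vehicle library for 76 and D0 1 the lowest D0 library for 69. Vehicle 1 was the lowest vehicle library for 51 and YC 4 the lowest YC library for 47. These libraries had the highest pancreatic acinar sums of their groups, and the part of that was not tested. Over the 22 libraries, the correlation of a member with the median of the others had a median of 0.91 and exceeded 0.9 for 46 members. The typical SD of a member over libraries was 0.46 on the log2 scale and 0.20 after the median of the others was subtracted. These correlations share library, scaling and read depth and are given as a description. The 7 members under 0.7 were Rpl22l1 (0.47), Rpl7l1 (0.54), Rpl7a (0.55), Rpl17 (0.60), Rpl4 (0.64), Rps9 (0.68) and Rpl10a (0.69), named after their values were seen. Many of these genes have processed copies in the genome, and how reads were shared with them is not known, so the values of single members are uncertain.

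**Figure D2:**
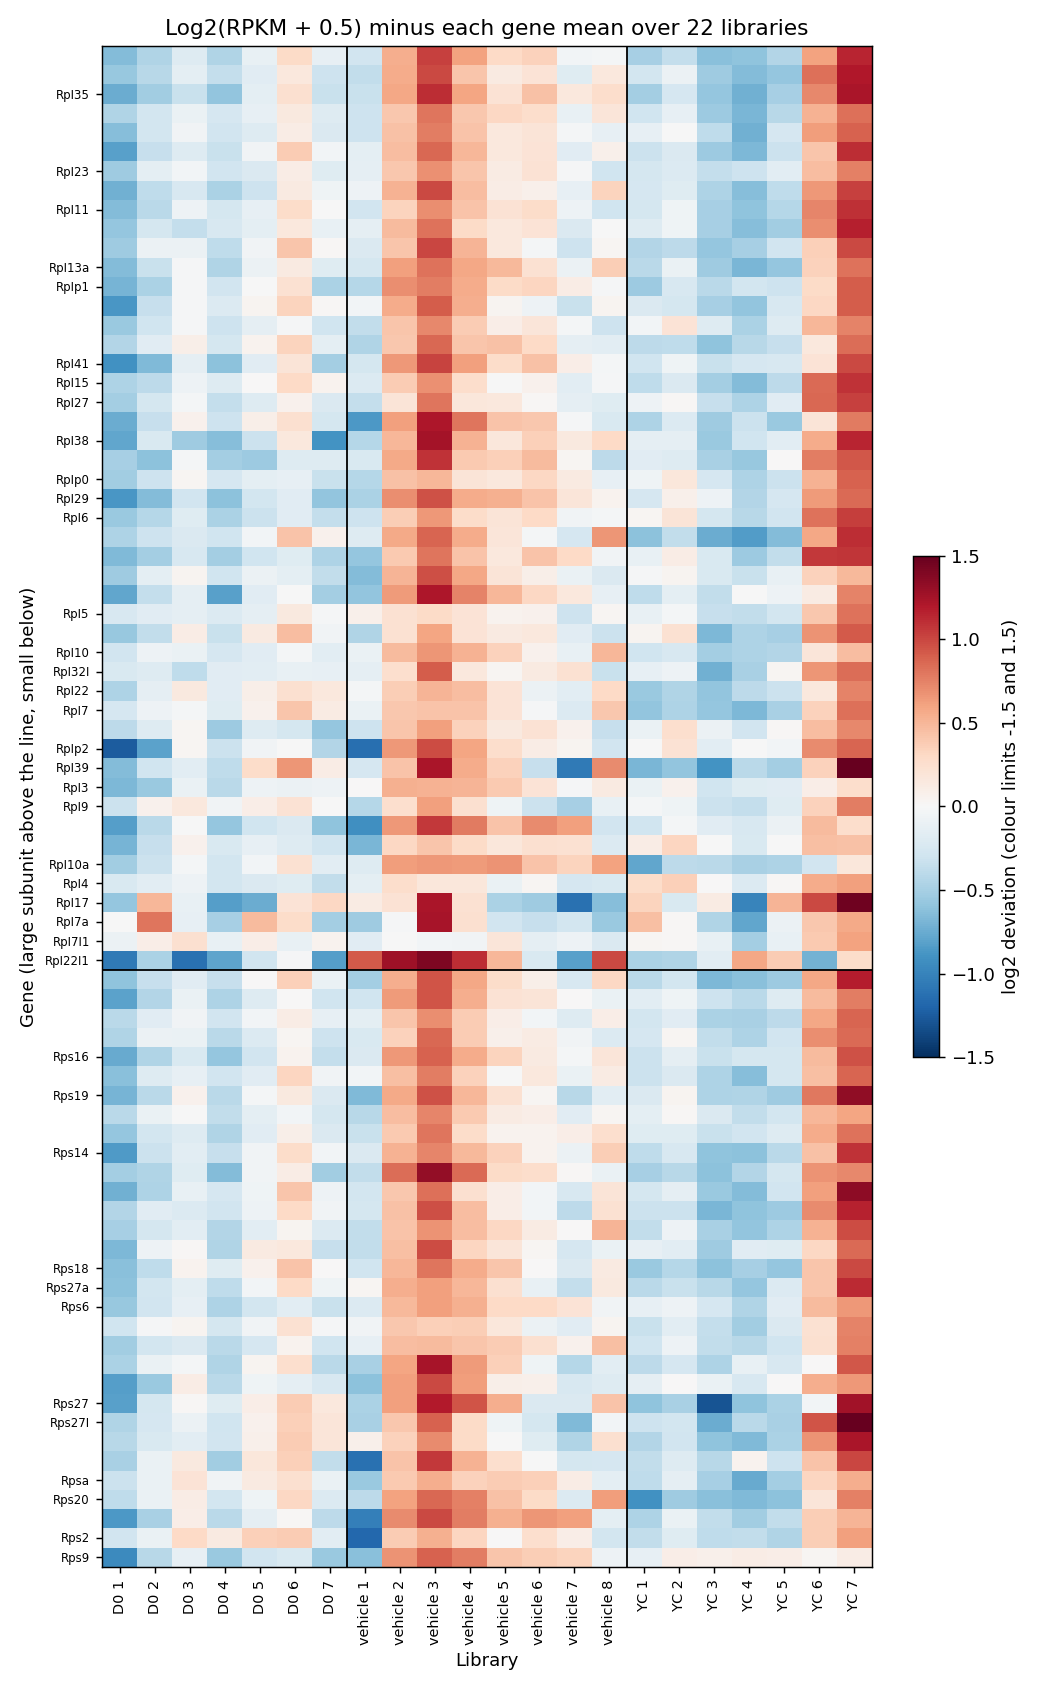
Log2(RPKM + 0.5) of 79 of the 81 tested members (rows) minus each gene's mean over the 22 libraries (columns), red above and blue below the mean, with rows of each subunit ordered by their correlation with the rest of the family and names given for some. The columns of vehicle 3 and YC 7 are red for nearly all members, and the row of Rpl22l1, with a correlation of 0.47 to the rest, departs from the columns.

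Other short transcripts moved with the family. The median longest transcript was 906 bases for tested members and 3000 bases for all tested genes. The 680 tested genes outside the family with transcripts under 1000 bases had a library median that correlated with the family's at r = 0.89 (n = 22 libraries, which share scaling and depth). Their part in the family's differences was not tested, and their values are given beside each comparison. Summed macrophage markers (7 genes) were 148 to 307 RPKM in D0, 534 to 1793 in vehicle and 377 to 888 in YC livers, with r = 0.69 to the family (n = 22). All 7 rose in vehicle against D0 livers, and 3 fell in YC against vehicle livers (6 with median-ratio scaling, 2 without vehicle 3). Summed hepatocyte markers (6 genes) were 49997 to 68632 RPKM in D0, 60690 to 93986 in vehicle and 31773 to 63272 in YC livers, with YC 6 and YC 7 lowest at 33436 and 31773, and 3 of the 6 fell in YC against vehicle livers. Within the YC livers they ran against the family at r = -0.90, as did Fah at -0.92 and the summed erythroid markers (6 genes) at -0.93 (n = 7 libraries each, which share scaling and depth). Macrophage markers ran with the family there, at 0.84. The other marker sums had r = 0.59 (neutrophil), 0.73 (skeletal muscle), 0.07 (pancreatic acinar), -0.10 (lymphocyte) and -0.70 (cholangiocyte) in YC livers. YC 6 and YC 7 were the lowest YC livers for hepatocyte markers, Fah and erythroid markers. In vehicle and D0 livers the hepatocyte markers had r = -0.76 and -0.47, Fah 0.66 and 0.83, and the erythroid markers 0.56 and -0.30. All 5 tested erythroid markers rose in vehicle against D0 livers and 2 fell in YC against vehicle livers. Sums over the 6 were 23.7 to 133 in D0, 63.2 to 1265 in vehicle and 4.17 to 474 RPKM in YC livers. Of all tested genes 28.2% rose from D0 to vehicle livers, and 6.14% fell from vehicle to YC livers (16.7% with median-ratio scaling). The part of these cell types in the family's differences was not tested.

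Vehicle livers were compared with D0 livers for the change over 28 days without YC. In limma, 27 of 81 members rose (33.3%) and 0 fell, beside 28.2% of all 12535 tested genes that rose and 29.9% that fell. The share that rose is close to the background. The members' median log2 fold change was 0.41 against 0.005 over all tested genes, and 77 of 81 values were above 0. With median-ratio scaling, which sets libraries level by the median gene, 28 rose and 0 fell (background 29.2% higher, 30.8% lower) and the median was 0.42. The short transcripts outside the family had a median of 0.47, and 322 of 680 rose. Array weights gave 55 higher (background 32.5% higher, 35.6% lower). Without vehicle 1 the count was 43 (background 29.2%), without vehicle 3 it was 21 (background 26.4%), and without YC 6 and YC 7, which are in neither group but enter the shared spread, it was 50 (background 30.9%).

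Rpl22l1, a relative of Rpl22 that can take its place in the large subunit, had the highest fold change. It was 19.7, 24.8 and 42.8 RPKM at its lowest, median and highest in D0 livers and 24.4, 84.7 and 116 in vehicle livers. The groups overlapped only through vehicle 6 and vehicle 7, which lay within the D0 range. Rpl22l1 (chromosome 3, 28805436 to 28807424 on mm10) rose by 1.301 ± 0.28 on the log2 scale (SE, limma adjusted p = 0.000457), 2.46-fold.

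Rpl29, a large subunit protein, was 85.8, 104.5 and 141 RPKM at its lowest, median and highest in D0 livers and 114, 221 and 307 in vehicle livers. The groups overlapped at their ends. Rpl29 rose by 0.86 ± 0.20 (SE, limma adjusted p = 0.00102). Rpl38, known for a role in translating Hox mRNAs in embryos, rose by 0.81 ± 0.23 (SE, limma adjusted p = 0.00497).

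Among members with known roles, Rps6, the small subunit protein phosphorylated downstream of mTOR, rose by 0.59 ± 0.16 (limma adjusted p = 0.0034), from 265 ± 28.9 (SD, n = 7) to 404 ± 76.2 RPKM (SD, n = 8). The acidic stalk protein Rplp1, which with Rplp0 and Rplp2 recruits translation factors, rose by 0.54 ± 0.21 (limma adjusted p = 0.0346). Rplp1 lost its call in 10 of 32 alternatives, among them without vehicle 2, vehicle 3, vehicle 4 or any of D0 1, D0 2, D0 4 and D0 7. Rplp0 and Rplp2 had values of 0.39 ± 0.18 and 0.56 ± 0.26 and were not called. The Mdm2-binding proteins Rpl5, Rpl11 and Rpl23 had 0.19 ± 0.15, 0.34 ± 0.23 and 0.36 ± 0.17, none called. Rps19, the gene most often mutated in Diamond-Blackfan anemia, had 0.35 ± 0.27, Rpsa, also known as the laminin receptor, 0.18 ± 0.19, and Rps27a, which is made fused to ubiquitin, 0.38 ± 0.22, none called.

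The most abundant members did not all follow. Rplp1, Rpl10 and Rpl41 had the highest mean RPKM of the large subunit, and Rps2, Rps14 and Rps18 of the small. Rpl41, the smallest ribosomal protein, rose by 0.75 ± 0.21 (limma adjusted p = 0.00458) and Rpl10, which helps complete the large subunit, by 0.45 ± 0.16 (limma adjusted p = 0.0192). Rps2, near the mRNA entry channel, averaged 1140 ± 209 RPKM in D0 (SD, n = 7) and 1128 ± 336 in vehicle livers (SD, n = 8), a log2 value of -0.07 ± 0.22 that was not called. Vehicle 1 held 467 RPKM of Rps2 against 870 to 1531 in the other vehicle livers, and without it the value was 0.10. Rpl3 was the only one of the 81 members with every D0 library below every vehicle library, at 137 to 208 against 215 to 317 RPKM, and was named after its values were seen.

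YC livers were compared with vehicle livers at day 28. As deposited, 0 of 81 members rose and 7 fell (8.64%), beside 44.6% of all tested genes that rose and 6.14% that fell. The members' median log2 fold change was -0.27 against 0.31 over all tested genes, and 71 of 81 values were below 0. With median-ratio scaling the all-gene median was 0.01, the members' median -0.61, and 49 members fell (60.5%) and 0 rose, beside 16.7% and 18.2% of all genes. The short transcripts outside the family had medians of 0.01 as deposited and -0.32 with median-ratio scaling, where 242 of 680 fell.

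YC 6 and YC 7 overlapped with vehicle livers for most members. They were the 2 highest YC libraries for 78 of 81 members, and 0 members had every YC library below every vehicle library. Without both, 55 members fell and 0 rose as deposited (median -0.56, background 7.25% lower and 43.9% higher), and 74 fell with median-ratio scaling (median -0.89, background 18.1% lower and 20.4% higher). The short transcripts outside the family then had a median of -0.20 as deposited, with 190 of 666 lower. Without YC 7 alone 34 fell and 0 rose (background 6.51% lower, 44.1% higher). Without YC 6 alone 13 fell and 0 rose (background 5.86% lower, 43.3% higher). Without vehicle 1 the count was 17 (background 7.38%). Without vehicle 3 it was 4 (background 5.36%), as it was without any one of vehicle 2, vehicle 4, YC 1, YC 2 and YC 3. Within the libraries that hold Y-linked transcripts, 8 vehicle livers and YC 1 to YC 3, which also leaves out YC 6 and YC 7, 26 fell (background 6.28% lower, 37.0% higher) and the median was -0.52. Array weights, which give outlying libraries less influence, gave 61 lower (background 11.1%), and quantile normalization 11 lower and 1 higher (background 16.8% and 18.0%).

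**Figure D3:**
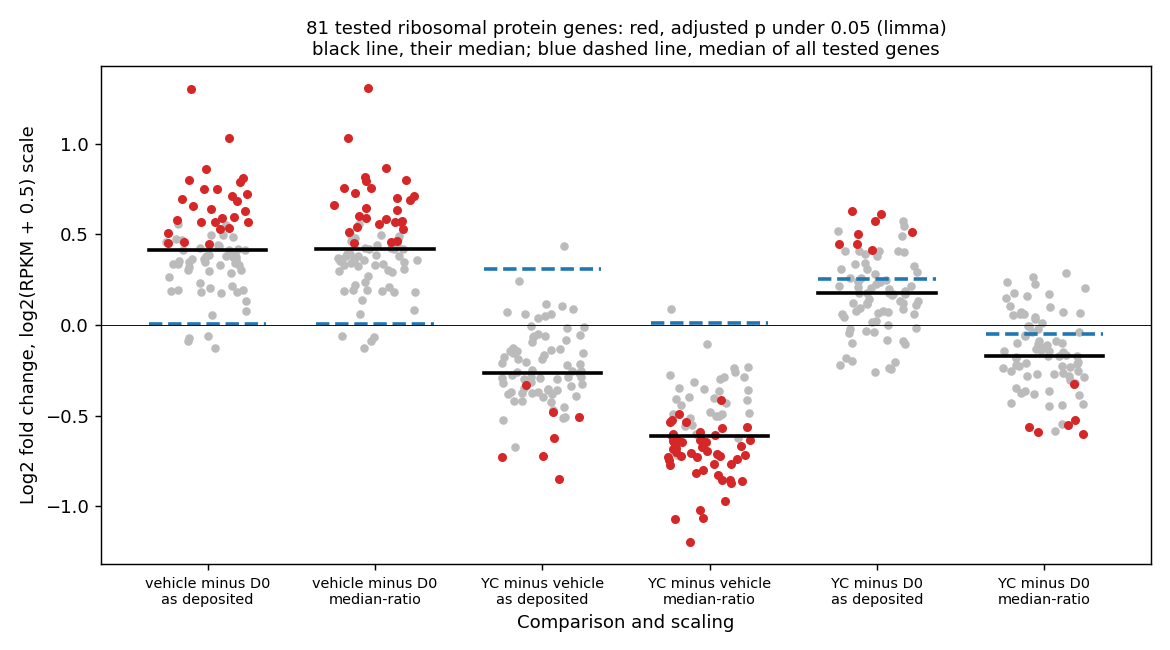
Log2 fold change of each of the 81 tested members in 3 comparisons, as deposited and with median-ratio scaling, red where the limma adjusted p was under 0.05. Black lines are member medians (0.41, 0.42, -0.27, -0.61, 0.18 and -0.17 from left to right) and blue dashed lines the medians of all tested genes.

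Rpl10a, a large subunit protein carried by only part of the ribosomes, had the lowest fold change. It was 275, 482 and 502 RPKM at its lowest, median and highest in vehicle livers and 183, 237 and 354 in YC livers. Vehicle 1 and YC 7 overlapped, and the other 7 vehicle livers lay above all YC livers. Rpl10a (chromosome 17, 28328471 to 28331033) fell by 0.85 ± 0.15 on the log2 scale (SE, limma adjusted p = 0.000114), 1.80-fold, and was called in all 33 alternatives. Without YC 6 and YC 7 the value was -0.97.

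Rps20, a small subunit protein, was 47.2, 89.5 and 113 RPKM in vehicle and 32.8, 40.3 and 105 in YC livers. YC 1 to YC 5 lay below every vehicle liver, and YC 6 and YC 7 within their range. Rps20 fell by 0.72 ± 0.22 (SE, limma adjusted p = 0.00918) and was called in all 33 alternatives. Rpl22l1 fell by 0.73 ± 0.28 (limma adjusted p = 0.0364), a call lost in 17 of 33 alternatives, among them without any one of vehicle 1 to 4, vehicle 8, YC 1 to 3 and YC 6, at adjusted p between 0.0545 and 0.0808. Rpl13a, which has a role in silencing inflammatory mRNAs, Rpl10 and Rpl3 also fell, at -0.51 ± 0.21, -0.48 ± 0.16 and -0.33 ± 0.14.

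Of the members with roles named above, those of the stalk, of Mdm2 binding and Rps6, Rps19, Rpsa and Rps27a were not called as deposited. Rplp0, Rplp1 and Rplp2 had -0.08 ± 0.18, -0.37 ± 0.21 and 0.07 ± 0.26. Rps6 had -0.27 ± 0.16 as deposited and fell by 0.61 ± 0.16 with median-ratio scaling (limma adjusted p = 0.00546). Rpl5, Rpl11 and Rpl23 had -0.07 ± 0.15, -0.16 ± 0.23 and -0.19 ± 0.17, of which Rpl5 and Rpl23 were called lower with median-ratio scaling at -0.41 and -0.54. Rpsa and Rps27a had -0.38 ± 0.19 and -0.26 ± 0.22 and were called lower with that scaling at -0.73 and -0.61. Rps19 had -0.06 ± 0.27.

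Against the rest of the family, a few members differed. With each library centred on the median of the ribosomal protein genes, 4 members fell from vehicle to YC livers, among them Rpl10a (-0.59), Rps20 (-0.47) and Rps27 (-0.42). On that scale 5 were higher, among them Rpl17 (0.69), Rpl4 (0.49), Rpl9 (0.31) and Rpl27 (0.29). Between vehicle and D0 livers, 6 were higher relative to the family (at 0.26 to 0.88, with Rpl22l1 highest and Rpl29, Rpl38, Rpl41 and Rps16 among the others) and 4 were lower (Rpl7a, Rpl7l1, Rps2 and Rpl9, at -0.55 to -0.48). Of all genes on this scale, 49.5% were higher and 1.77% lower in YC than vehicle livers, and 8.25% higher and 41.5% lower in vehicle than D0 livers. Between YC and D0 livers 5 members were higher and 3 lower on that scale (background 19.9% and 8.54%). Rpl17, Rpl4, Rps27, Rpl9, Rpl27, Rpl7a and Rps16 were named after their values were seen.

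YC livers were compared with D0 livers, which shares libraries with both other comparisons. As deposited 8 of 81 members rose (9.88%) and 0 fell, beside 41.2% of all genes that rose and 12.3% that fell, and the median was 0.18 against 0.25 over all genes. With median-ratio scaling 0 rose and 6 fell (7.41%), beside 25.8% and 28.6% of all genes, and the median was -0.17, so the family's direction changed with the scaling. Without YC 6 and YC 7, 2 rose and 8 fell as deposited (median -0.12, background 41.7% higher and 14.5% lower) and 0 rose and 42 fell with median-ratio scaling (median -0.45, background 31.4%). The count of 8 was 1 without D0 1, 3 without D0 4, 4 without D0 2 or YC 2, 5 without D0 7 and 2 without YC 6 or YC 7, while 37.7 to 42.8% of all genes were higher with any 1 library left out. Quantile normalization gave 15 higher (background 23.3%) and array weights 11 lower (background 18.2% lower, 48.4% higher). The short transcripts outside the family had medians of 0.43 as deposited and 0.11 with median-ratio scaling.

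Called members included Rplp2 at 0.63 ± 0.27 (limma adjusted p = 0.0498), Rpl29 at 0.57 ± 0.21 (limma adjusted p = 0.0258) and Rpl6 at 0.52 ± 0.20 (limma adjusted p = 0.0329). None of these was called with median-ratio scaling, at 0.29, 0.23 and 0.17. Rplp2 was 152, 290 and 370 RPKM at its lowest, median and highest in D0 and 324, 359 and 663 in YC livers, and the groups overlapped. The 6 that fell with median-ratio scaling were Rps20, Rpl7, Rpl10a, Rpsa, Rpl22 and Rpl7l1, at -0.60 to -0.32.

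Ratios between related genes within a library cancel its scaling where both genes lie far above the pseudocount of 0.5 RPKM, which Rpl39l does in no library and Rpl3l only in vehicle 3. They were tested for 5 pairs and 3 comparisons with exact two-sided permutation tests over libraries, adjusted over the 15 tests. Rps27l, a p53-induced relative of Rps27, changed most clearly against it. The log2 ratio Rps27l/Rps27 was 0.34 ± 0.16 in D0 (SD, n = 7), -0.02 ± 0.24 in vehicle (SD, n = 8) and 0.71 ± 0.32 in YC livers (SD, n = 7). Every YC liver, at 0.31 to 1.32, lay above every vehicle liver, at -0.34 to 0.31, the closest being YC 5 and vehicle 1. YC exceeded vehicle livers by 0.73 on the log2 scale (exact permutation, adjusted p = 0.00233). Vehicle minus D0 was -0.36 (exact permutation, adjusted p = 0.0233) and YC minus D0 0.37 (exact permutation, adjusted p = 0.0402).

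In RPKM, Rps27l was 130, 175 and 705 at its lowest, median and highest in YC livers and 138, 210 and 403 in vehicle livers, and Rps27 was 70.8, 124 and 416 against 125, 244 and 396. YC 6 and YC 7 held the highest Rps27l values, 420 and 705 RPKM, and neither gene was called alone as deposited (Rps27l 0.05 ± 0.29, Rps27 -0.67 ± 0.29). The difference of the ratio between YC and D0 livers was 0.23 without YC 6 and YC 7 and no longer called (adjusted p = 0.0971). It also lost its call without YC 3, without YC 6 and without any D0 library except D0 1, at differences of 0.27 to 0.37.

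The log2 ratio Rpl22l1/Rpl22 was -0.56 ± 0.37 in D0 (SD, n = 7), 0.52 ± 0.58 in vehicle (SD, n = 8) and 0.19 ± 0.64 in YC livers (SD, n = 7). It was 1.09 higher in vehicle than in D0 livers (exact permutation, adjusted p = 0.0198), with vehicle 6 and vehicle 7 lowest of the vehicle livers. The differences of -0.33 between YC and vehicle and 0.76 between YC and D0 livers were not called (adjusted p = 0.469 and 0.0539). Without YC 6 and YC 7, the 2 lowest YC livers, the latter was 1.07 (adjusted p = 0.00777).

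Rpl7l1, a nucleolar relative of Rpl7, was 0.53 higher against Rpl7 on the log2 scale in YC than in vehicle livers (exact permutation, adjusted p = 0.0233). The ratio was -3.67 ± 0.29 in YC (SD, n = 7) and -4.20 ± 0.27 in vehicle livers (SD, n = 8), and the groups overlapped. Rpl7l1 itself averaged 34.6 ± 3.28, 32.5 ± 2.89 and 35.9 ± 9.33 RPKM in D0, vehicle and YC livers. The ratio differences of -0.27 and 0.26 against D0 livers were not called, and without YC 6 and YC 7 that between YC and D0 livers was 0.40 (adjusted p = 0.0189).

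**Figure D4:**
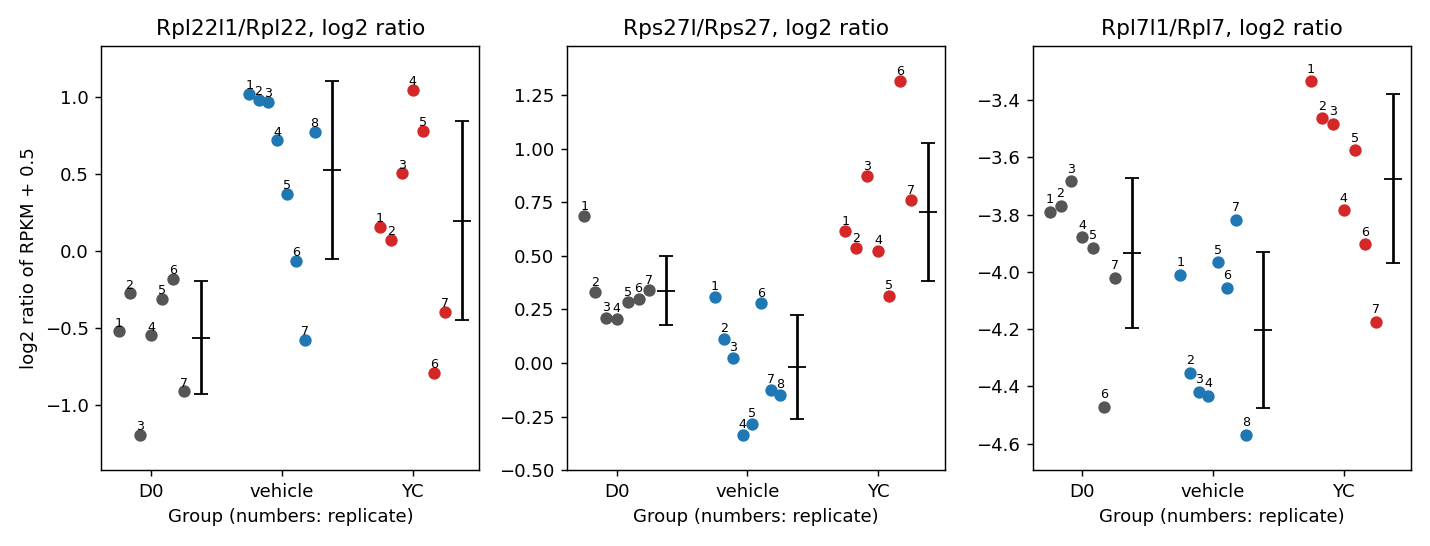
Log2 ratio of each relative to its partner gene in every library, numbered by replicate, with group mean and SD. Rps27l/Rps27 is higher in each of the 7 YC livers (0.31 to 1.32) than in any of the 8 vehicle livers (-0.34 to 0.31).

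The remaining relatives were barely detected. Rpl3l, the form of Rpl3 used in muscle, was 22.7 RPKM in vehicle 3, the library with 4559 RPKM of skeletal muscle transcripts, and at most 0.29 RPKM in the other 21 libraries. Rpl39l, a relative of Rpl39 known from testis, was listed at 0 in 9 libraries and reached 0.32 RPKM in vehicle 3. Rpl32l averaged 0.61, 0.95 and 0.87 RPKM in D0, vehicle and YC livers and was not called in any comparison. The ratio differences of Rpl3l/Rpl3 and Rpl39l/Rpl39 were not called, at adjusted p of 0.3 or more. Without vehicle 3, Rpl3l/Rpl3 in YC minus vehicle reached 0.43 (exact permutation, adjusted p = 0.0262). In those libraries Rpl3l was at most 0.23 RPKM, under the pseudocount, so that ratio mostly restates the level of Rpl3 and says nothing on Rpl3l.

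Related gene lists were set beside the family, whose median was 0.41 between vehicle and D0 livers. Of 82 ribosome biogenesis genes, 66 fell and 1 rose (median -0.79, background 29.9% lower). Of 15 genes of RNA polymerase I, which makes ribosomal RNA, 9 fell and 1 rose (median -0.52), of 26 initiation factors 16 fell and 1 rose (median -0.39), and of 16 genes of mTOR control 9 fell and 0 rose (median -0.37). Median-ratio scaling gave 67, 10, 16 and 9 lower. Myc, which drives many of these genes and is itself counted in the mTOR list, fell from 16.8 ± 2.29 (SD, n = 7) to 4.28 ± 1.06 RPKM (SD, n = 8), by 1.88 on the log2 scale. The mTOR list also holds inhibitors such as Sesn2, so its counts do not give a direction of mTOR control. The biogenesis genes have a median transcript of 2956.5 bases against 906 for the family, and the part of length in this contrast was not tested.

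Between YC and vehicle livers the family's median was -0.27 as deposited. Of the biogenesis genes 67 rose and 0 fell as deposited (median 0.55, background 44.6% higher), and 26 rose and 2 fell with median-ratio scaling (median 0.23, background 18.2% higher). Pwp2, a factor of small subunit assembly, went from 4.95 ± 0.35 in vehicle (SD, n = 8) to 9.83 ± 1.91 RPKM in YC livers (SD, n = 7), a rise of 0.90 on the log2 scale (limma adjusted p = 1.35e-06). Of the polymerase I genes 10 rose and 0 fell (4 and 1 with median-ratio scaling), with the initiation factor gene Taf1a of that polymerase at 1.399. Of the mTOR genes 11 rose and 0 fell (4 and 0), with Sesn2, a stress-induced inhibitor of mTOR, at 1.55. Of the initiation factors 14 rose and 0 fell as deposited, with Eif3a at 0.69, but 0 rose and 4 fell with median-ratio scaling. Myc, also counted among the mTOR genes, averaged 9.95 ± 2.98 RPKM in YC livers (SD, n = 7), a rise of 1.10 as deposited and 0.77 with median-ratio scaling.

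The 5 ribosomal proteins outside the symbol rule (Fau and Rack1 among them) had medians of 0.40 in vehicle minus D0, with 3 called higher, and -0.19 in YC minus vehicle, with 0 called as deposited and 4 lower with median-ratio scaling. Of 77 mitochondrial ribosomal protein genes, 17 rose (22.1%) and 6 fell between D0 and vehicle livers (median 0.16) and 11 rose (14.3%) and 3 fell between vehicle and YC livers (median 0.19, but 0 and 16 with a median of -0.16 under median-ratio scaling). Mrpl24 was among those that fell in YC livers, by 0.69 as deposited. Of 19 elongation factors and other genes known for TOP mRNAs, 5 rose and 2 fell between D0 and vehicle livers and 5 rose and 1 fell between vehicle and YC livers (median 0.05, but 2 and 7 with a median of -0.30 under median-ratio scaling), with Nap1l1, a histone chaperone, at 0.93 as deposited. Of all tested genes 28.2% rose and 29.9% fell between D0 and vehicle livers, and 44.6% rose and 6.14% fell between vehicle and YC livers (18.2% and 16.7% under median-ratio scaling).

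**Figure D5:**
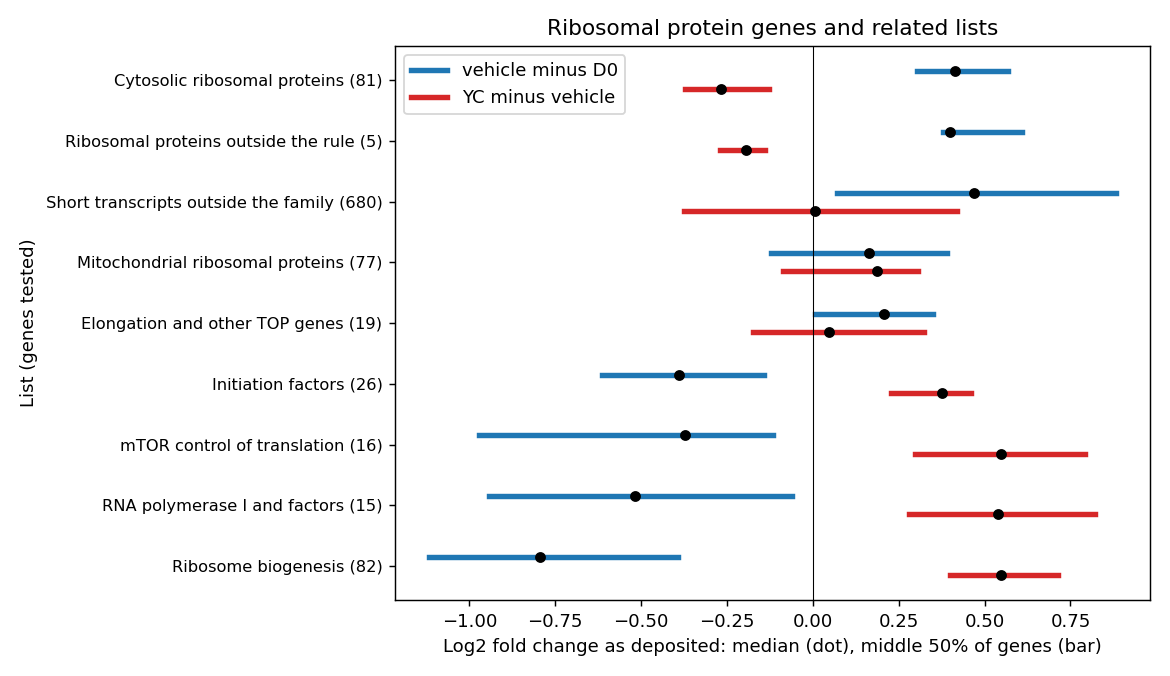
Median (dot) and middle 50% of genes (bar) of the log2 fold change as deposited for the ribosomal protein genes and related lists, in vehicle minus D0 (blue) and YC minus vehicle (red), with the number of genes tested in brackets. The ribosomal protein genes have medians of 0.41 and -0.27, the 82 ribosome biogenesis genes -0.79 and 0.55.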

How the data were processed

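Polyadenylated RNA from 22 livers was sequenced. The authors deposited 1 table of RPKM values, made with TopHat 1.4.1 and Cufflinks 1.3.0 on mm10 per the submitters' processing notes. For annotation, filters and strand, the sources used here state nothing. RPKM carry no counts, absolute depth was not recovered, and arms of 7 or 8 libraries limit the precision.

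Groups came from the treatment labels. Of 18716 rows, 2 repeated names were dropped. Genes reaching 0.5 RPKM in 7 or more libraries were fitted on log2(RPKM + 0.5) with limma 3.58.1 (trend, robust, statmod 1.5.0, R 4.3.3) over all 22 libraries in 3 groups, with Benjamini-Hochberg adjustment over 12535 genes and a threshold of 0.05. Fold changes on this scale understate those of low genes. On simulated data for YC minus vehicle (12535 genes), 180 of 200 genes changed by 1 on the log2 scale were recovered with 8 false calls. Other steps used Python 3.11.15 with scipy 1.17.1, pandas 2.3.3, numpy 2.4.6 and, for figures, matplotlib 3.10.9. Gene positions and lengths come from GENCODE vM21, of the same build.

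Members, lists and tests were chosen with earlier results of these data known, and the muscle list after Rpl3l was seen. Genes named were those with known roles, all l-suffix relatives, the 4 highest and 4 lowest called members per comparison (group mean 5 RPKM or more in either group), the 3 most abundant per subunit, Fah, Myc and, per list, the called gene of smallest adjusted p in YC minus vehicle. Alternatives covered scaling, pseudocount, filter, libraries left out, weights and a replicate block. Rpl10l and Rps4l were not used here, and some members and related genes that the rule names are not reported here.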

Additional observations from a re-analysis of the deposited data

Results flagged for a closer look

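In 96 groups of values checked for 28 named members, the family's share and 3 ratios, 8 held a library far from the others, and chance gives about 1 in 20. Among vehicle livers, vehicle 3 stood apart for Rpl3l (22.7 RPKM, the others at most 0.115), Rpl32l (1.88 RPKM, the others at most 1.01) and Rpl38 (347 RPKM, the others at most 210). Vehicle 1 stood apart for Rpl10a at 274.5 RPKM, the others at 396 or more. Among YC livers, YC 7 held 1314 RPKM of Rpl41, the others at most 760.2. Among D0 livers, Rpl39l was 0.169 RPKM in D0 4 against at most 0.0435, the log2 ratio Rps27l/Rps27 was 0.69 in D0 1 against at most 0.34, and the log2 ratio Rpl7l1/Rpl7 was -4.47 in D0 6 against -4.02 or more.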

How the results depend on the processing

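Members lower in YC than in vehicle livers (7) numbered 49 under median-ratio scaling, 11 under quantile normalization, 4 with an equal total, 4 with values centred on the family, 4 with only the 2 groups compared, 55 without YC 6 and YC 7, 13 without vehicle 1 and YC 4, 26 in libraries with Y-linked transcripts alone and 61 with array weights, and 4 to 34 with 1 library left out. The shares of all genes lower in these settings were 16.7, 16.8, 4.79, 1.77, 5.09, 7.25, 7.81, 6.28 and 11.1%, and 4.65 to 7.38% with 1 library left out. Members higher there (0) numbered 1 with quantile normalization, 1 with an equal total and 5 centred on the family, and 0 to 1 with 1 library left out (all genes 18.0, 53.0, 49.5 and 40.0 to 48.3%). Members higher in vehicle than in D0 livers (27) numbered 6 centred on the family (with 4 lower), 42 with only the 2 groups compared, 50 without YC 6 and YC 7, 43 without vehicle 1 and YC 4 and 55 with array weights, and 21 to 43 with 1 library left out (all genes 8.25, 29.3, 30.9, 30.03, 32.5 and 25.4 to 29.2%, and 41.5% lower when centred). Members higher in YC than in D0 livers (8) numbered 0 under median-ratio scaling, 15 under quantile normalization, 5 centred on the family, 2 without YC 6 and YC 7 and 13 without vehicle 1 and YC 4, and 1 to 11 with 1 library left out (all genes 25.8, 23.3, 19.9, 41.7, 44.2 and 37.7 to 42.8%). Members lower there (0) numbered 6, 3, 3 and 8 under the first 4 of these and 11 with array weights, and 0 to 1 with 1 library left out (all genes 28.6, 29.97, 8.54, 14.5, 18.2 and 10.9 to 13.2%). In fits added after seeing the data, 38, 74 and 51 members fell from vehicle to YC livers without vehicle 3 and with median-ratio scaling, without YC 6 and YC 7 and with median-ratio scaling, and without all 3 libraries. Under these 3, members higher in YC than in D0 livers numbered 0, 0 and 2 and lower 6, 42 and 8, and those higher in vehicle than in D0 livers numbered 47 in the second (all genes 14.9, 18.1 and 6.41%, then 26.1, 27.8 and 41.9%, 28.6, 31.4 and 14.7%, and 31.7%). The cause of these shifts was not tested.

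Replicate numbers did not pair the libraries: same-numbered libraries correlated at -0.39 to 0.23 over 21 pairs, and 2 of 14 libraries in each comparison correlated best with their own number. With the replicate block, 6 members fell from vehicle to YC livers (41 with median-ratio scaling), 31 rose from D0 to vehicle livers and 9 from D0 to YC livers, and 0 were higher and 5 lower in YC than in D0 livers with the block and median-ratio scaling (all genes 6.45, 15.5, 28.2, 40.1, 25.3 and 27.6%). The block ended the calls of Rpl10 in vehicle minus D0 (0.42, limma adjusted p = 0.0579) and Rpl22l1 in YC minus vehicle (-0.68, limma adjusted p = 0.0814), and Rpl23 and Rplp2 were called in vehicle minus D0 (0.43 and 0.62, limma adjusted p = 0.0408 and 0.0318). With the replicate block the called ratios lost their call, Rpl22l1/Rpl22 at 1.05 in vehicle minus D0, Rpl7l1/Rpl7 at 0.48 in YC minus vehicle, and Rps27l/Rps27 at 0.71 in YC minus vehicle, -0.34 in vehicle minus D0 and 0.37 in YC minus D0. Vehicle 8 has no same-numbered partner and does not enter these differences. So few pairs leave little room to pass the adjustment, and the lost calls decide nothing on the ratios. The uncalled Rpl39l/Rpl39 and Rpl3l/Rpl3 changed sign in vehicle minus D0 under the block, to 0.056 and 0.058.

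Other ratio values that crossed the threshold came without YC 6 and YC 7, at 1.07 for Rpl22l1/Rpl22, 0.40 for Rpl7l1/Rpl7 and 0.23 for Rps27l/Rps27, all in YC minus D0. With 1 library left out, YC minus D0 values ranged from 0.62 to 0.92, 0.17 to 0.34 and 0.27 to 0.43 for these 3, and Rpl7l1/Rpl7 in vehicle minus D0 from -0.36 to -0.22. With a pseudocount of 0.1, Rpl39l/Rpl39 was -0.060 in YC minus vehicle and 0.37 in vehicle minus D0, where leaving out 1 library gave -0.25 to 0.056. Rpl3l/Rpl3 ranged from -0.65 to 0.13 in vehicle minus D0 and from -0.34 to 0.43 in YC minus vehicle. The value of 0.43 came without vehicle 3, where it was called (exact permutation, adjusted p = 0.0262). Rpl3l lay under the pseudocount in those libraries, so that call says nothing on Rpl3l.

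Single members changed sign as follows. Centred on the family, YC minus vehicle was 0.088 for Rpl11, 0.064 for Rpl23, 0.118 for Rpl32l, 0.19 for Rpl5, 0.17 for Rplp0, 0.20 for Rps19 and 0.12 for Rps2, and vehicle minus D0 was -0.083 for Rpl11, -0.060 for Rpl23, -0.072 for Rpl32l, -0.24 for Rpl5, -0.035 for Rplp0, -0.094 for Rps18, -0.075 for Rps19, -0.047 for Rps27a, -0.34 for Rps27l and -0.24 for Rpsa. In YC minus D0, Rpl29 and Rpl6, called as deposited, were -0.025 and -0.12 without YC 6 and YC 7 under median-ratio scaling. The other sign changes were of values not called as deposited, of which Rpl7l1 and Rps27l in YC minus vehicle were called lower without YC 6 and YC 7 under median-ratio scaling. In YC minus vehicle, an equal total gave 0.041 for Rpl5, 0.027 for Rplp0 and 0.050 for Rps19, and quantile normalization -0.10 for Rpl7l1, 0.062 for Rplp0 and 0.11 for Rps2. There, Rpl7l1, Rplp2 and Rps27l were -0.24, -0.27 and -0.30 with median-ratio scaling, -0.075, -0.15 and -0.45 without YC 6 and YC 7, -0.25, -0.33 and -0.30 with the replicate block and median-ratio scaling, -0.23, -0.15 and -0.17 without vehicle 3 with median-ratio scaling, -0.40, -0.48 and -0.78 without YC 6 and YC 7 with median-ratio scaling, and -0.071, -0.033 and -0.33 without vehicle 3, YC 6 and YC 7. Rplp2 and Rps27l were -0.13 and -0.45 in libraries with Y-linked transcripts alone and -0.23 and -0.34 with array weights, and Rplp2 was -0.070 without vehicle 1 and YC 4. With 1 library left out, Rplp0 ranged from -0.22 to 0.0093, Rplp2 from -0.11 to 0.19, Rps19 from -0.27 to 0.062 and Rps27l from -0.22 to 0.18. In vehicle minus D0, Rps2 was 0.10 without vehicle 1 and YC 4 and 0.043 with array weights (-0.14 to 0.10 with 1 library left out), and Rps27l was -0.032 with quantile normalization, -0.019 with an equal total, -0.041 without vehicle 3 with median-ratio scaling and -0.046 without vehicle 3, YC 6 and YC 7 (-0.046 to 0.17 with 1 library left out). The libraries with Y-linked transcripts include no D0 library, so that setting gave no value for the other 2 comparisons.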
